A study of Homo sapiens and Mus musculus with 74 samples.

Results

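The genes of the mouse major histocompatibility complex (MHC) were read from the count table as the protein-coding genes of GENCODE M21 whose symbol begins with H2-. This rule uses no measured value, and it found 34 of the 21908 protein-coding genes in the table. By symbol, 24 of them are class I genes, 9 are class II genes, and 1, H2-Ke6, belongs to neither class. All lie on chromosome 17 of GRCm38 between 33996053 and 37483552, a span of 3.49 Mb. A further 11 H2- genes are annotated as pseudogenes (4 as polymorphic, 1 as transcribed unprocessed and 6 as unprocessed) and were left out by the rule. Of the transcripts of a gene, the one with the longest protein is used throughout, except that promoters are read from complete models alone. The model of H2-Eb1 chosen in this way, as that of H2-M11, is marked incomplete in the annotation.

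The study compared wild-type (WT) mice with mice homozygous for a deletion of the whole coding sequence of Rpl41 (KO). This gene encodes RPL41, the smallest ribosomal protein. Zygotes of the C57BL/6J strain were edited, so RPL41 is absent from every cell of the KO animals, and the samples are bulk tissue of 10-week-old males. RNA-seq of poly(A) RNA and Ribo-seq, which sequences the mRNA fragments that single ribosomes protect, were made from kidney and brain with 3 libraries per genotype. Disome-seq, which sequences fragments protected by stacked ribosomes, was made from kidney with 3 libraries per genotype, for 30 mouse libraries in 10 groups. The labels number the replicates without naming animals, so the p-values below measure the spread between these samples.

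MHC class I molecules are made of a heavy chain and beta-2-microglobulin, are found on nearly all nucleated cells, and show peptides from the cytosol to CD8+ T cells. H2-K1 and H2-D1 encode the classical heavy chains of this strain, and the H2-Q, H2-T and H2-M genes encode non-classical ones, several of them with restricted expression. Class II molecules pair an alpha with a beta chain and are carried mainly by dendritic cells, macrophages and B cells, where they show peptides taken from endosomes to CD4+ T cells. Interferon-gamma raises both classes, class II through the coactivator CIITA. Mice of this strain carry a defect in the gene of the E alpha chain, so that the E beta chain encoded by H2-Eb1 has no partner at the cell surface. In healthy brain tissue both classes are known to be low.

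The class I genes arose by repeated duplication, and the likeness of many of them bears on their values below, because the authors let reads that fit several places count. Exon 4 of the coding sequence, which encodes the membrane-proximal immunoglobulin-like domain, is shown for 7 of them by its first 90 bases, since a 28-base footprint from its end fits several of them. The coordinates on GRCm38 are chr17:33997471-33997560 (minus strand) for H2-K1, chr17:35265784-35265873 (plus) for H2-D1, chr17:35323064-35323153 (plus) for H2-Q1, chr17:35382858-35382947 (plus) for H2-Q4, chr17:35442267-35442356 (plus) for H2-Q7, chr17:36031008-36031097 (minus) for H2-T23 and chr17:37272269-37272358 (plus) for H2-M3. Capitals mark bases that differ from H2-K1.
H2-K1: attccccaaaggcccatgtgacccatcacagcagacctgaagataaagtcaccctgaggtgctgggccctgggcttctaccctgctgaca
H2-D1: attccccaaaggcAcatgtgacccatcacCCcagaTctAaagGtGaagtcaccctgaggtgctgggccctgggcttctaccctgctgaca
H2-Q1: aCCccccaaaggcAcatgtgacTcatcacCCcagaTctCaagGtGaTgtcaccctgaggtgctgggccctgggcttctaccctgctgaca
H2-Q4: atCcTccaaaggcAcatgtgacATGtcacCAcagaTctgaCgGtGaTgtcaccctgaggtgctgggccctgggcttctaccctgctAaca
H2-Q7: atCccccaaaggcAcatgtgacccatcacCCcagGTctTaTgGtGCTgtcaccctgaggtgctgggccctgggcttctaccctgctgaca
H2-T23: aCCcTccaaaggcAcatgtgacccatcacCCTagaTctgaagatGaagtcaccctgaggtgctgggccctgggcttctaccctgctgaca
H2-M3: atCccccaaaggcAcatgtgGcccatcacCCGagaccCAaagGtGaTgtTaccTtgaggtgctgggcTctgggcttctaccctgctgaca
H2-D1 differed from H2-K1 at 7 of these 90 bases, H2-T23 at 9, H2-Q1 at 11, H2-Q7 at 12, and H2-Q4 and H2-M3 at 14 each. Positions 48 to 86, a run of 39 bases, were identical in the first 6 of these genes, so no footprint inside it can be assigned to 1 of them.

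Over the whole coding sequence, the share of 28-base windows that also occur in another gene of the annotation was 35.5% for H2-K1, 45.7% for H2-D1, 30.8% for H2-Q1, 41.7% for H2-Q4, 56.6% for H2-Q6, 75.1% for H2-Q7, 56.3% for H2-T23 and 65.8% for H2-T22. The class II chains share far less, with 0.270% for H2-Aa, 1.30% for H2-Ab1 and 3.36% for H2-Eb1, and none for H2-DMa. H2-DMb1 and H2-DMb2, neighbours that encode the beta chain of the peptide-exchange factor DM, share 62.8% of their windows. H2-Ke6 shares 80.6% with an overlapping gene model, Gm20427. Some class I genes share little too, such as H2-T3 with 8.18%, H2-T24 with 7.91%, H2-M3 with 7.65% and H2-M5 with 7.37%. Values of the genes with large shares, among them H2-K1, H2-D1, the H2-Q genes, H2-T22, H2-T23 and the DM beta pair, are therefore uncertain as to which copy the reads came from.

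The promoters of 2 class II genes and 1 class I gene are shown because genes of both classes rose together in KO kidney footprints. No MHC gene was called in kidney RNA-seq, and the part of these promoters in the footprint rise was not tested. Each is the 250 bases before the annotated gene start on GRCm38, read on the strand of the gene, at chr17:34287824-34288073 (minus) for H2-Aa, chr17:34262959-34263208 (plus) for H2-Ab1 and chr17:34000348-34000597 (minus) for H2-K1. Capitals mark matches on either strand to ATTGG, the core of the Y box, which is known as one element of the conserved module of MHC promoters and is also a common element of other promoters.
H2-Aa: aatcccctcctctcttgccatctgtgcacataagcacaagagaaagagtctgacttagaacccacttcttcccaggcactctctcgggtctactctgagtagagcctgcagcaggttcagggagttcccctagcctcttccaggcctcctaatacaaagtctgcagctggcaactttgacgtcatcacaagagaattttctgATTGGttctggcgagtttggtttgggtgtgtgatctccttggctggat
H2-Ab1: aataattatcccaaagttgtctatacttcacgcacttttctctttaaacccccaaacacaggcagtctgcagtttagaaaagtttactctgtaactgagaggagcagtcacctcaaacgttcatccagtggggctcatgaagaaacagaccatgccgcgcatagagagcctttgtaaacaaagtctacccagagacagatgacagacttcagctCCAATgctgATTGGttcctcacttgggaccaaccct
H2-K1: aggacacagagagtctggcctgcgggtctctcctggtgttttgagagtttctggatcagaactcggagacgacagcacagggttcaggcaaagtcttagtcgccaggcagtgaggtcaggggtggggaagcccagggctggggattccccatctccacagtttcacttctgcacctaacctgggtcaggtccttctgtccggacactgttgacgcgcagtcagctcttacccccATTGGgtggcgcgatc
A match lay 44 bases before the start of H2-Aa, 32 and 23 bases before that of H2-Ab1 and 12 bases before that of H2-K1. H2-Eb1 held matches at 55 and 31 bases, counted from the start of a complete transcript model, not of the incomplete model used for its counts. Of the 33 H2- promoters read, which leave out that of H2-M11, 24 held at least 1 match, against 35.7% of 21755 promoters of coding genes. GAAANNGAAA, the core of the interferon-stimulated response element, was found before H2-Q2 and H2-T22 alone, 2 of 33, against 3.06% of all promoters. Only these exact letters were searched for, so variant forms of either element were not counted, before H2-K1 or any other gene. A promoter without a match, such as that of H2-K1 for GAAANNGAAA, is therefore not shown to lack the element. The absence of these letters from a window says nothing of the factor that binds them.

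Depth, as the count of a library over all transcripts, lay between 84433838 and 123745890 for brain RNA, between 44998381 and 55077048 for kidney RNA, and between 9498663 and 42452425 for the footprints of both tissues. The 6 disome libraries were the shallowest, with 1187636 to 3018963 counts. The genotype labels were borne out by Rpl41, whose RNA was 81.2 to 156 CPM (counts per 1000000, scaled by TMM within an assay) in WT kidney and 0.0585 to 0.211 CPM in KO kidney. Kidney markers summed to 4199 CPM or more in kidney RNA-seq and to 0.647 CPM or less in brain, and brain markers to 1826 CPM or more in brain and 1.37 CPM or less in kidney. In kidney RNA-seq, KO replicates 2 and 3 stood apart, with 15327 and 15483 coding genes detected against 15885 to 16061 in the other kidney libraries. KO replicates 2 and 3 of brain RNA-seq were lowest too, by a smaller margin, with 17774 and 17730 against 17865 to 18078.

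In kidney footprints, MHC genes of both classes were higher in KO. Of the 34 genes, 21 had enough reads to be tested, and 7 rose at an adjusted p under 0.05 (H2-Eb1, H2-Ab1, H2-Aa, H2-Q4, H2-K1, H2-Q1 and H2-D1), while none fell. That is 33.3% of those tested, where 5.94% of all 13431 coding genes tested rose and 3.91% fell. The class I genes among the 7 share 30.8% to 45.7% of their 28-base coding windows with other genes. The same reads may thus be counted in several of them. The estimate was positive for 19 of the 21, with a median log2 fold change of 0.35 against -0.02 over all coding genes. The test is edgeR's quasi-likelihood F-test over all transcripts with Benjamini-Hochberg adjustment. The threshold was met narrowly by several of these genes, and without KO replicate 3 no MHC gene passed it, and without KO replicate 2 only H2-Eb1 did.

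The class II chains had the largest of these rises. H2-Ab1, the beta chain of the A molecule, had 35.7, 30.3 and 22.9 CPM in WT kidney footprints and 50.4, 49.8 and 52.7 CPM in KO. The 3 KO libraries lay close together and above every WT library, a log2 fold change of 0.76 ± 0.14 (SE, n = 3 per group, adjusted p = 0.0115). H2-Aa, the alpha chain of the same molecule, had 35.6, 27.2 and 20.4 CPM in WT and 45.4, 43.6 and 43.8 CPM in KO, a log2 fold change of 0.64 ± 0.16 (SE, adjusted p = 0.0307). H2-Eb1 had 30.7, 21.8 and 21.4 CPM in WT and 49.3, 40.4 and 43.4 CPM in KO, a log2 fold change of 0.81 ± 0.14 (SE, adjusted p = 0.00954). In all 3 genes WT replicate 1 was the highest WT library, and no WT library reached a KO library. The share of all coding genes whose groups lie apart in this way was not counted. Lack of overlap, here and below, therefore only describes the libraries. Summed over the 9 class II genes, WT libraries had 93.6 ± 20.5 CPM (SD, n = 3) and KO libraries 154.9 ± 6.16 CPM (SD, n = 3).

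The other class II genes were fainter and did not pass the threshold. H2-DMa, the alpha chain of DM, had log2 fold change 0.40 ± 0.21 (SE, adjusted p = 0.264), on 1.44 to 2.52 CPM in WT and 2.36 to 3.14 CPM in KO. H2-DMb1 had 0.35 ± 0.14 (SE, adjusted p = 0.154) and H2-DMb2 0.31 ± 0.17 (SE, adjusted p = 0.286). H2-Eb2, a second E beta gene, had 0.42 ± 0.24 (SE, adjusted p = 0.301) on no more than 1.57 CPM. The chains of DO, the B cell modulator of DM, were too low to be tested: H2-Oa stayed within 0.277 to 0.568 CPM and H2-Ob within 0.277 to 0.589 CPM over the 6 libraries. All 7 class II genes tested had a positive estimate, with a median of 0.42, which was 0.67 without WT replicate 1.

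**Figure D1:**
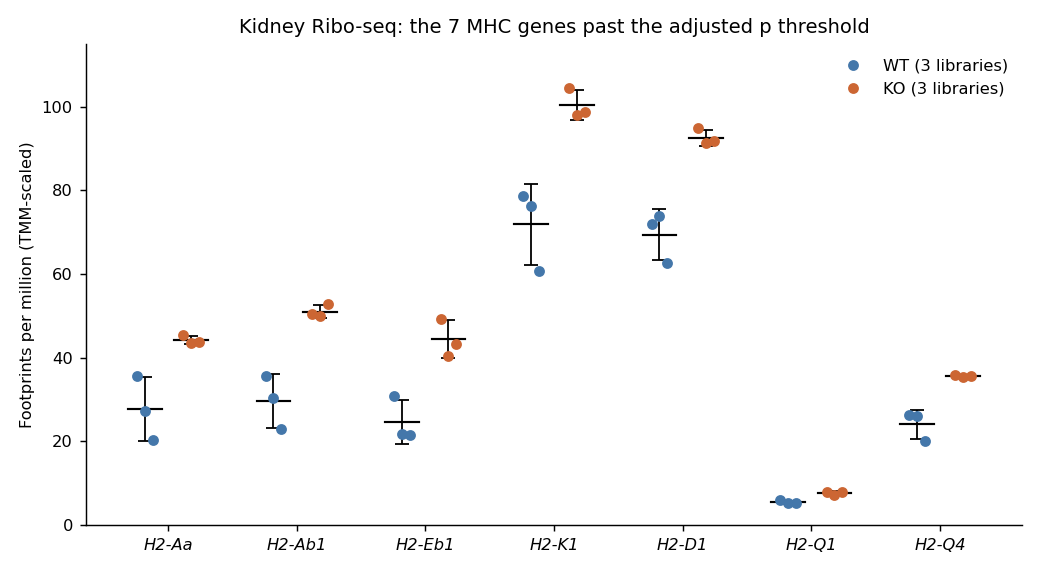
Kidney Ribo-seq CPM (TMM-scaled, y axis from 0) of the 7 MHC genes that rose in KO, with a point for each of 3 WT (blue) and 3 KO (orange) libraries, and the mean with its SD as bars. In each gene every KO point lies above every WT point. The WT libraries are the more spread in all but H2-Q1, as in H2-Aa with 20.4 to 35.6 CPM in WT and 43.6 to 45.4 CPM in KO.

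Of the 13 class I genes tested in kidney footprints, 4 rose, where 5.94% of all coding genes rose. The median log2 fold change over the 13 was 0.23. The classical heavy chain H2-K1 had 78.5, 76.3 and 60.8 CPM in WT and 104.5, 98.0 and 98.6 CPM in KO, a log2 fold change of 0.46 ± 0.12 (SE, adjusted p = 0.0394). H2-D1 had 71.9, 73.8 and 62.6 CPM in WT and 94.8, 91.2 and 91.8 CPM in KO, a log2 fold change of 0.40 ± 0.11 (SE, adjusted p = 0.0467). Both had WT replicate 3 as the lowest library, and KO libraries did not overlap with WT.

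Among the non-classical genes, H2-Q4 rose from 26.2, 25.9 and 20.0 CPM to 35.8, 35.3 and 35.6 CPM (log2 fold change 0.54 ± 0.12, SE, adjusted p = 0.0189). H2-Q1 rose from 5.88, 5.20 and 5.17 CPM to 7.89, 7.06 and 7.87 CPM (0.45 ± 0.13, SE, adjusted p = 0.0470). Groups did not overlap in either gene. H2-Q1 had no RNA-seq read in any kidney library, and 30.8% of its coding windows occur in another gene, 20.2% in H2-D1. It is therefore uncertain which copy its footprints came from. H2-T23, which encodes the Qa-1 heavy chain read by receptors of natural killer cells, had 38.8, 39.0 and 36.9 CPM in WT and 48.4, 45.5 and 49.7 CPM in KO. Its groups did not overlap either, but its log2 fold change of 0.30 ± 0.11 (SE) missed the threshold (adjusted p = 0.0813). H2-Q6 and H2-Q7, closely related genes of the Qa-2 antigen, had 0.17 and 0.15, H2-T22, a ligand of gamma delta T cells, had 0.23, and H2-M3, which presents N-formylated peptides, had 0.75 ± 0.28 (SE, adjusted p = 0.114) on 0.684 to 1.53 CPM in WT. The lowest estimate was -0.58 for H2-T24 (adjusted p = 0.282), at 2.01 CPM or less. Class I footprints summed to 275 ± 30.7 CPM (SD, n = 3) in WT and 359 ± 8.82 CPM (SD, n = 3) in KO. The MHC-encoded gene of neither class, H2-Ke6, a hydroxysteroid dehydrogenase with no known role in antigen presentation, had 27.9 to 29.6 CPM in WT and 26.2 to 29.3 CPM in KO (log2 fold change -0.07 ± 0.10, SE, adjusted p = 0.692).

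The same tissue was read by RNA-seq, and there no MHC gene was called. Of 18 tested, 2 had an unadjusted p under 0.05, both higher in KO, where 11.0% of all coding genes were higher and 3.1% lower at that p. DESeq2 also called no MHC gene, while it called 52 coding genes higher and 20 lower. Over all coding genes tested, 0.0% were called higher and 0.0072% lower in KO, the latter being Rpl41 itself. H2-Ab1 RNA had 26.7, 31.3 and 22.4 CPM in WT and 38.1, 33.8 and 33.9 CPM in KO, without overlap (log2 fold change 0.40 ± 0.16, SE, unadjusted p = 0.0321, adjusted p = 0.292). H2-Eb1 RNA had 24.7, 24.4 and 22.0 CPM in WT and 27.5, 14.1 and 20.3 CPM in KO, and its KO libraries lay on both sides of WT (-0.20 ± 0.23, SE, adjusted p = 0.619). H2-Aa RNA overlapped in the same manner, with 28.5, 34.9 and 26.6 CPM in WT and 38.5, 23.3 and 27.8 CPM in KO (0.00 ± 0.20, SE, adjusted p = 0.997). H2-K1 had 0.29 ± 0.14 (SE, adjusted p = 0.314) and H2-D1 0.10 ± 0.13 (SE, adjusted p = 0.668). H2-Ke6 RNA had 31.6 to 50.1 CPM in WT and 53.9 to 73.4 CPM in KO (0.64 ± 0.21, SE, unadjusted p = 0.0161, adjusted p = 0.292). In each of H2-Aa and H2-Eb1, KO replicate 1 was the highest library of its genotype, and the other two KO libraries are the pair that stood apart in genes detected. Without that pair, which leaves 1 KO library, no MHC gene was called, and the log2 fold change was 0.35 ± 0.24 (SE) for H2-Aa and 0.20 ± 0.22 (SE) for H2-Eb1.

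Translation efficiency (TE), the change of footprints relative to the change of RNA in 1 model, was tested for 25 MHC genes in kidney, and none was called, as for 0.0% of all coding genes in each direction. An unadjusted p under 0.05 was reached by H2-Eb1, with a log2 TE change of 1.01 ± 0.32 (SE, adjusted p = 0.146), and by H2-Ke6, with -0.71 ± 0.26 (SE, adjusted p = 0.184), where 6.01% of coding genes were higher and 11.6% lower at that p. H2-Ab1 had 0.36 ± 0.25 (SE), H2-Aa 0.65 ± 0.31 (SE), H2-K1 0.17 ± 0.21 (SE) and H2-D1 0.29 ± 0.17 (SE). So the footprint rises passed the threshold and the RNA changes did not, but a difference between them was not called for any MHC gene. Without the KO kidney RNA-seq library 1, 4 TE calls appeared, higher for H2-Eb1 (1.28), H2-Aa (0.88) and H2-T23 (0.74) and lower for H2-Ke6 (-0.82), in a fit that also called 651 of 15746 coding genes higher and 1065 lower.

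Disome-seq held few MHC reads, and 10 of the 34 genes could be tested. None was called, where 0.0901% of 7769 coding genes were called higher and 0.0644% lower. All 3 class II chains had positive log2 fold changes, 0.69 ± 0.22 (SE, unadjusted p = 0.00376, adjusted p = 0.204) for H2-Eb1, 0.49 ± 0.26 (SE) for H2-Ab1 and 0.49 ± 0.27 (SE) for H2-Aa. H2-Eb1 had 20.7, 17.0 and 13.6 CPM in WT and 30.2, 25.4 and 31.2 CPM in KO, without overlap. H2-K1 had 0.44 ± 0.20 (SE, unadjusted p = 0.0376, adjusted p = 0.421) and H2-D1 0.27 ± 0.23 (SE). H2-Eb1 and H2-K1 were the 2 of 10 with an unadjusted p under 0.05, where 6.04% of coding genes were higher and 5.14% lower at that p. DESeq2 called none in the disome or TE comparisons either.

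In brain, no MHC gene differed between the genotypes at the threshold. Of 20 tested in RNA-seq none was called, against 0.0% of coding genes higher and 0.00636% lower, and of 18 tested in Ribo-seq none was called, against 0.0% higher and 0.0346% lower. At an unadjusted p under 0.05 there were 2 in RNA-seq, both higher, and none in Ribo-seq, and DESeq2 called no MHC gene in either. At that p 3.59% of coding genes were higher and 1.41% lower in RNA-seq, and 7.41% higher and 7.09% lower in Ribo-seq. H2-Eb1 RNA had 0.647, 0.660 and 0.767 CPM in WT brain and 1.15, 1.26 and 1.11 CPM in KO, without overlap (log2 fold change 0.72 ± 0.21, SE, unadjusted p = 0.00890, adjusted p = 0.898). H2-D1 RNA had 17.9 to 18.5 CPM in WT and 22.5 to 23.0 CPM in KO, also without overlap (0.29 ± 0.10, SE, unadjusted p = 0.0175, adjusted p = 0.898). In brain footprints the same genes had 0.38 ± 0.26 (SE, adjusted p = 0.578) and -0.02 ± 0.14 (SE, adjusted p = 0.970), with overlapping groups. H2-K1 footprints had 14.5 to 20.0 CPM in WT brain and 15.5 to 20.7 CPM in KO (0.00 ± 0.14, SE, adjusted p = 0.997). TE in brain was tested for 23 MHC genes with no call, as for 0.0% of coding genes either way, and none had an unadjusted p under 0.05, where 1.77% of coding genes were higher and 3.52% lower.

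A model of both tissues asked whether the KO effect itself differed between kidney and brain. Its interaction of tissue and genotype was tested for 22 MHC genes in each assay, and none was called. Over all coding genes, the term was called higher in 0.0% and lower in 0.0% for RNA-seq, and in 0.0385% and 0.103% for Ribo-seq. In Ribo-seq 8 MHC genes had an unadjusted p under 0.05, all with the higher estimate in kidney, where 4.75% of coding genes were higher and 4.68% lower at that p. They were led by H2-Q4 (0.61 ± 0.21, SE, adjusted p = 0.460), H2-DMb1 (0.91 ± 0.37, SE, adjusted p = 0.567), H2-K1 (0.46 ± 0.20, SE, adjusted p = 0.606) and H2-Ab1 (0.73 ± 0.32, SE, adjusted p = 0.618). In RNA-seq H2-Eb1 alone had an unadjusted p under 0.05 (-0.96 ± 0.30, SE, adjusted p = 0.585), where 2.67% of coding genes were higher and 5.21% lower. The rise in kidney footprints is therefore not shown to differ from brain for any MHC gene.

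**Figure D2:**
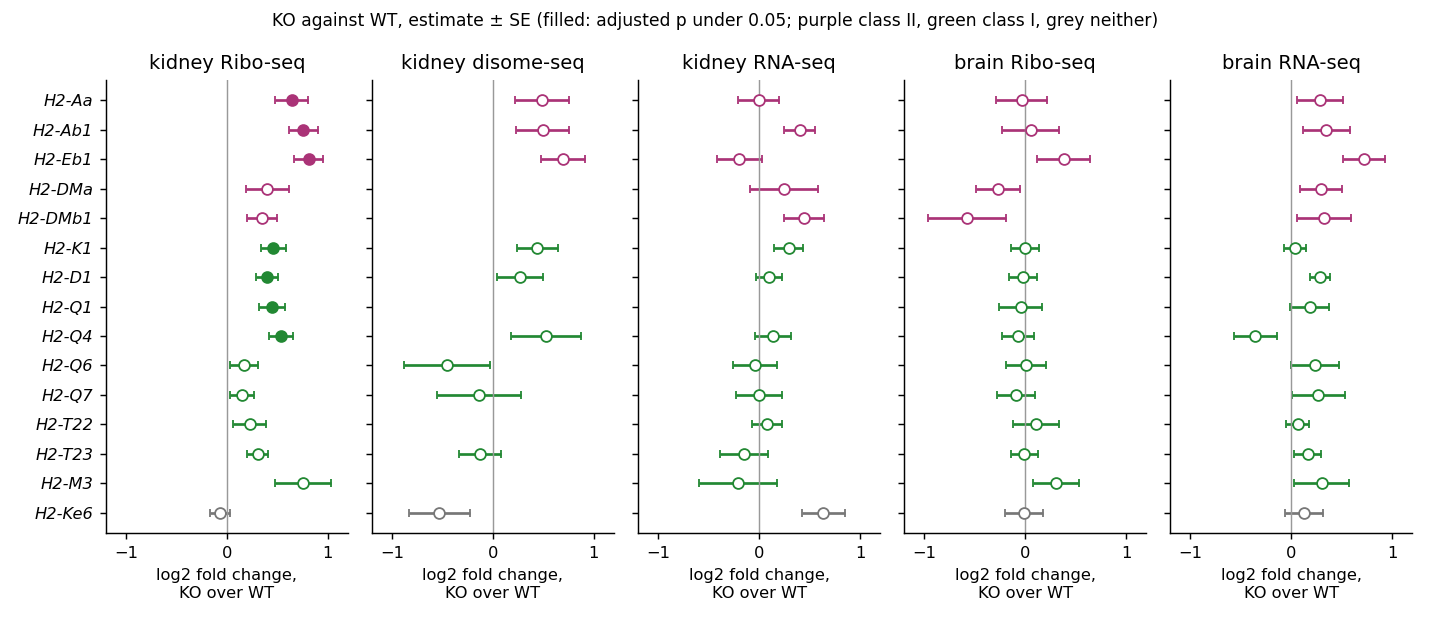
Log2 fold changes of KO over WT (x axis) with their SE for 15 MHC genes (rows) in the 5 tissue and assay comparisons (panels). Class II is purple, class I green and H2-Ke6 grey, and filled points passed an adjusted p of 0.05, which 7 did in kidney Ribo-seq and none in the other panels.

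Genes that act with the MHC molecules were followed through lists. Of 8 genes of the class II pathway tested in kidney footprints, 3 rose, where 5.94% of all coding genes rose. Ciita, the coactivator of class II transcription, rose from 0.763 to 1.14 CPM in WT to 1.74 to 1.97 CPM in KO (log2 fold change 0.94 ± 0.23, SE, adjusted p = 0.0314). Ctss, the protease that trims the invariant chain, rose from 5.32 to 6.67 CPM to 10.1 to 11.8 CPM (0.81 ± 0.12, SE, adjusted p = 0.00570), and Cd74, the invariant chain itself, from 69.5 to 96.0 CPM to 122 to 144 CPM (0.63 ± 0.14, SE, adjusted p = 0.0182). Groups did not overlap in these 3 genes, which adds little for genes already called. In RNA-seq Ciita had 0.208 to 0.449 CPM in WT and 0.152 to 0.253 CPM in KO, groups that overlap (log2 fold change -0.75 ± 0.59, SE).

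Of the 10 peptide-loading genes of class I, 2 rose, a small count to set against the 5.94% of all coding genes. They were Erap1, the trimming peptidase of the endoplasmic reticulum (0.75 ± 0.11, SE, adjusted p = 0.00483), and Tap1, a chain of the peptide transporter (0.58 ± 0.15, SE, adjusted p = 0.0357). B2m, the light chain of every class I molecule, had 75.4 to 82.1 CPM in WT and 87.3 to 112 CPM in KO, without overlap, but missed the threshold (0.26 ± 0.12, SE, adjusted p = 0.214). Tap2 had 0.37 (adjusted p = 0.131), Tapbp, or tapasin, 0.20 (adjusted p = 0.304), and Nlrc5, the class I coactivator, -0.25 (adjusted p = 0.639). None of the 5 immunoproteasome genes passed, with Psmb8 at 0.25 (adjusted p = 0.330) and Psmb9 at 0.35 (adjusted p = 0.341), nor did any of 6 MHC-like genes outside the H2- names.

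Genes of the interferon response were also higher. Of 18 tested in kidney footprints 7 rose and none fell, 38.9% against the 5.94% of all coding genes, and all 18 estimates were positive with a median of 0.42. The chemokine Cxcl10 had 1.23 ± 0.25 (SE, adjusted p = 0.0139), the GTPase Iigp1 1.10 ± 0.26 (SE, adjusted p = 0.0241) and the guanylate-binding protein Gbp2 0.97 ± 0.20 (SE, adjusted p = 0.0152). In kidney RNA-seq none of the 19 interferon genes tested was called, although 18 of 19 estimates were positive, with a median of 0.51 against 0.10 over all coding genes, and 7 had an unadjusted p under 0.05, all higher, as had 11.0% of coding genes. No listed gene other than Rpl41 was called in kidney RNA-seq, brain or disome-seq. These lists were chosen with earlier results of these data known, so the counts are descriptions.

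**Figure D3:**
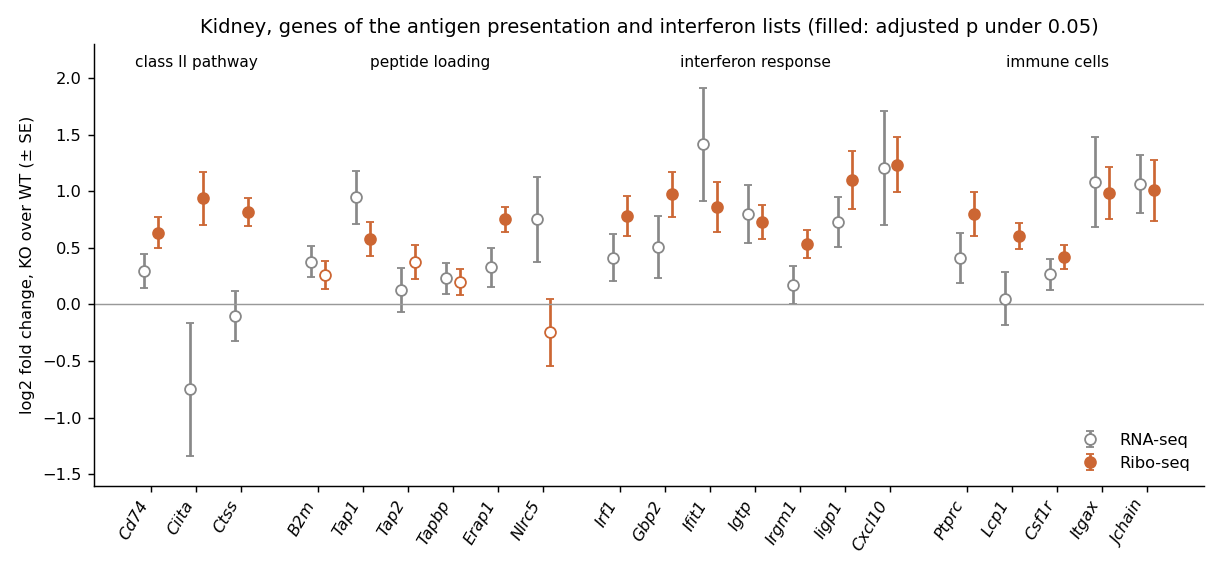
Log2 fold changes of KO over WT in kidney (y axis, with SE) for 21 genes of the class II pathway, class I peptide loading, the interferon response and immune cells, in RNA-seq (grey) and Ribo-seq (orange). Filled points passed an adjusted p of 0.05, all of them in Ribo-seq, while B2m, Tap2, Tapbp and Nlrc5 did not. The class II pathway and immune cell genes drawn are those that rose in Ribo-seq, and the others tested are left out. The peptide loading and interferon genes drawn are a part of their lists.

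Markers of other cells moved in the same kidney footprints, where 5.94% of all coding genes rose and 3.91% fell. In bulk tissue, more cells of a type cannot be told apart from more RNA or footprints per cell. Of 5 leukocyte markers, Ptprc (CD45, 0.80 ± 0.20, SE, adjusted p = 0.0298) and Lcp1 (0.60 ± 0.12, SE, adjusted p = 0.0132) rose, and the 5 summed to 19.5 to 30.7 CPM in WT and 36.9 to 39.4 CPM in KO, without overlap and with WT replicate 1 the highest of WT, as for the class II chains. Of 8 macrophage and dendritic cell markers tested, Csf1r (0.42 ± 0.11, SE, adjusted p = 0.0344) and Itgax (0.98 ± 0.23, SE, adjusted p = 0.0248) rose, while the 9 listed summed to 40.4 to 60.0 CPM in WT and 55.6 to 62.9 CPM in KO, which overlap. Of the B and plasma cell list, Jchain alone could be tested and rose (1.01 ± 0.27, SE, adjusted p = 0.0394), and T cell markers, summing to no more than 1.33 CPM, were too low for a test. In RNA-seq the leukocyte sums overlapped, with 21.3 to 24.0 CPM in WT and 21.4 to 29.0 CPM in KO.

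Endothelium, a further cell type that carries MHC molecules, had Pecam1 higher in KO footprints (0.57 ± 0.12, SE, adjusted p = 0.0143) and marker sums of 101 to 135 CPM in WT against 153 to 161 CPM in KO. In RNA-seq the endothelial sum went the other way, with 75.6 to 101 CPM in WT and 62.5 to 69.7 CPM in KO. KO replicates 2 and 3, the pair that stood apart in genes detected, had 62.5 CPM each, and KO replicate 1 had 69.7 CPM. Pecam1 RNA had 10 and 38 counts in that pair, 165 in KO replicate 1 and 187 to 372 in WT. Epithelial kidney genes rose too in footprints, Slc12a1 of the thick ascending limb by 0.82 ± 0.13 (SE, adjusted p = 0.00648) and Lrp2 of the proximal tubule by 0.62 ± 0.17 (SE, adjusted p = 0.0456). Genes known from pancreatic acinar cells summed to 164 CPM in WT replicate 1, 2.77 and 15.7 CPM in the other WT libraries and 2.67 CPM or less in KO, and the 3 that could be tested were lower in KO. In kidney RNA-seq they summed to 0.813 CPM in WT replicate 1 and to 1.41 CPM or less in every library, and in brain Ribo-seq to 54.5 CPM in WT replicate 1 and 2.59 CPM or less in the other libraries. Without WT replicate 1, H2-Ab1, H2-Aa, H2-Eb1 and H2-Q4 kept their calls, with log2 fold changes of 0.92, 0.87, 1.01 and 0.61, and H2-K1, H2-D1 and H2-Q1 lost theirs (adjusted p = 0.0617, 0.0976 and 0.0759). None of the 5 red blood cell genes was called. The part of these cell types in the MHC values was not tested.

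For most MHC genes the tissues differed by more than the genotypes. In WT RNA-seq, 19 MHC genes were tested between kidney and brain, of which 15 were higher in kidney and 2 lower, where 38.2% of coding genes were higher and 34.8% lower. A gene that passed the filter only through the tissue where it is high had to differ, so these counts describe the genes with reads. Tissue cannot be told apart from whatever else differed when the libraries of each tissue were prepared.

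Of the genes higher in kidney RNA, the class II chains H2-Ab1, H2-Aa and H2-Eb1 had the largest differences. In RNA-seq H2-Ab1 had 22.4 to 31.3 CPM in WT kidney and 0.651 to 0.910 CPM in WT brain, a log2 fold change of 5.21 ± 0.24 (SE, adjusted p = 3.48e-08). H2-Aa (5.20 ± 0.22, SE) and H2-Eb1 (5.13 ± 0.19, SE) differed by as much, and so did their companion Cd74 (5.23 ± 0.21, SE). Among class I genes the same contrast gave 4.20 ± 0.28 (SE) for H2-Q6, 3.15 ± 0.18 (SE) for H2-K1 and 2.06 ± 0.15 (SE) for H2-D1. Class II RNA summed to 89.3 ± 11.3 CPM (SD, n = 3) in WT kidney and 5.83 ± 0.797 CPM (SD, n = 3) in WT brain, and class I RNA to 226 ± 15.2 and 41.7 ± 0.127 CPM (SD, n = 3 each). H2-DMa departed from its class, with 1.56 to 2.74 CPM in kidney and 2.20 to 3.32 CPM in brain, which overlap (-0.30 ± 0.29, SE, adjusted p = 0.382). In brain it was the highest class II gene per kb of transcript.

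In footprints these 3 chains again had the largest differences, at smaller distances than in RNA. In WT Ribo-seq 21 genes were tested, 19 were higher in kidney and none lower, against 37.5% and 38.0% of coding genes. The log2 fold change was 4.24 ± 0.24 (SE) for H2-Ab1, 4.14 ± 0.23 (SE) for H2-Aa, 4.08 ± 0.21 (SE) for H2-Eb1, 2.07 ± 0.16 (SE) for H2-K1 and 1.53 ± 0.16 (SE) for H2-D1. H2-DMa (0.03 ± 0.25, SE) and H2-M3 (-0.35 ± 0.29, SE) did not pass. In KO mice 16 of 21 genes tested were higher in kidney RNA and 1 lower, against 39.8% and 34.2% of coding genes, and 21 of 22 were higher in kidney footprints, against 40.6% higher and 40.3% lower. H2-DMa was among those 21 (0.73 ± 0.20, SE, adjusted p = 0.00316), and H2-M3 was the exception (0.13 ± 0.22, SE, adjusted p = 0.601).

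**Figure D4:**
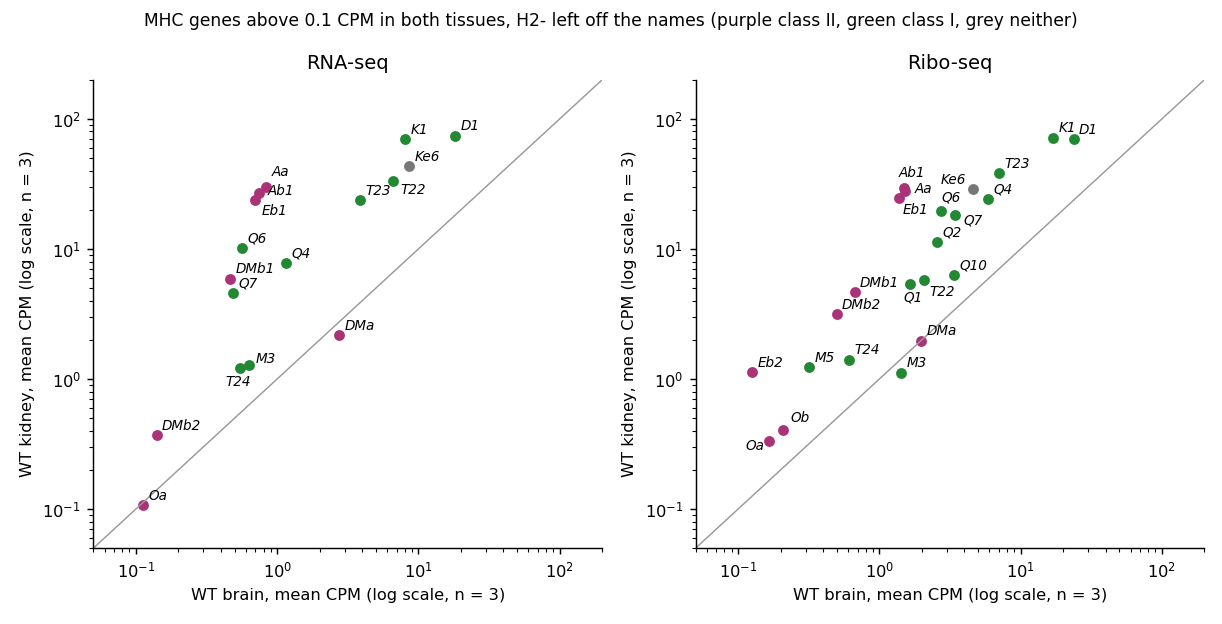
Mean CPM of MHC genes in WT kidney (y axis) against WT brain (x axis), both on log scales, for RNA-seq (left) and Ribo-seq (right), with the line of equal level. The class II chains H2-Aa, H2-Ab1 and H2-Eb1 (purple) lie farthest above the line, with H2-Aa near 30.0 CPM in kidney RNA and below 1 CPM in brain. H2-DMa lies by the line in both assays.

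Of the genes called between the tissues in both assays, 2 class I genes, H2-Q1 and H2-M5, had opposite directions in RNA and footprints. H2-Q1 had no RNA-seq read in any of the 6 kidney libraries and 1.03 to 1.17 CPM in WT brain. Against a floor of 3 counts per library, its RNA was at least 17.1-fold lower in WT kidney than in brain, and at least 18.0-fold lower in KO. Its footprints were yet higher in kidney, at 5.17 to 5.88 CPM in WT kidney and 1.19 to 1.98 CPM in WT brain (1.64 ± 0.20, SE, adjusted p = 5.54e-06). H2-M5 RNA was lower in WT kidney (-2.00 ± 0.72, SE, adjusted p = 0.0336), with 0 to 5 reads per library against 22 to 30 in WT brain. Its footprints were higher in WT kidney (1.80 ± 0.35, SE, adjusted p = 3.54e-04), with 17 to 29 reads against 2 to 10 in WT brain. Both genes passed the RNA filter through brain alone, and H2-M5 passed the footprint filter through kidney alone. They had to differ in these tests, so these calls only describe where the reads lie. The RNA call of H2-M5 was lost in 5 of 12 alternatives, with adjusted p up to 0.105. H2-Q2 and H2-M3 also had estimates of opposite sign, of which 1 assay each did not pass, with -1.45 in RNA and 2.09 in footprints for H2-Q2 and 1.06 in RNA and -0.35 in footprints for H2-M3.

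Levels of different genes can be compared per kb. In WT kidney RNA-seq, CPM per kb of transcript was 43.2 ± 5.84 (SD, n = 3) for H2-K1, 38.0 ± 8.81 for H2-Ke6, 35.3 ± 2.57 for H2-D1, 26.6 ± 3.82 for H2-Aa, 22.1 ± 3.67 for H2-Ab1, 20.3 ± 1.27 for H2-Eb1, 18.7 ± 1.67 for H2-T22 and 16.1 ± 2.50 for H2-T23. The libraries of neighbours in this order overlap, except those of H2-D1 and H2-Aa. A step without overlap follows, to 4.85 ± 1.38 for H2-Q6, 4.37 ± 0.485 for H2-Q4 and 4.19 ± 0.662 for H2-DMb1. In WT brain H2-D1 came first with 8.65 ± 0.144, followed by H2-Ke6 with 7.56 ± 1.49 and H2-K1 with 4.98 ± 0.141 (SD, n = 3). The order of the classical pair in RNA thus differed between the tissues. H2-K1 RNA was above that of H2-D1 in kidney and below it in brain, by more than the SD of either in both. Footprints per kb of coding sequence were nearly level in WT kidney, with 64.9 ± 8.74 for H2-K1 and 63.9 ± 5.51 for H2-D1 (SD, n = 3). In WT brain they were 15.3 ± 2.55 and 21.8 ± 4.79 (SD, n = 3). H2-K1 shares 24.1% of its 28-base coding windows with H2-D1, so which copy the reads came from is uncertain.

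The ratio of footprint CPM to RNA CPM in WT kidney had a median of 0.871 over 11719 coding genes with at least 10 reads in each library. The classical genes lay near it, with 1.03 for H2-K1, 0.936 for H2-D1, 0.925 for H2-Aa, 1.10 for H2-Ab1 and 1.04 for H2-Eb1. Several duplicated genes did not. H2-T22 had 0.174, at percentile 1.70 of coding genes, from 33.0 CPM of RNA and 5.76 CPM of footprints, and shares 65.8% of its coding windows. H2-Q4 had 3.07, H2-Q7 3.95 and H2-DMb2 8.49, the last at percentile 98.5. H2-Q2, with 0 to 5 RNA reads and 123 to 300 footprints per library, and H2-Q1, with 0 RNA reads and 68 to 156 footprints, lie at the far end, and both share over 30% of windows. H2-Eb2 also had no RNA read in WT kidney, with 12 to 27 footprints, and shares 2.16% of windows. Other genes with small shares had high ratios too, all on 5 RNA reads or fewer per library. They were H2-T3 with 61.3 (8.18% shared), H2-M2 with 22.1 (4.39%) and H2-M5 with 21.4 (7.37%). The part of reads that fit several copies in these ratios was not tested.

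**Figure D5:**
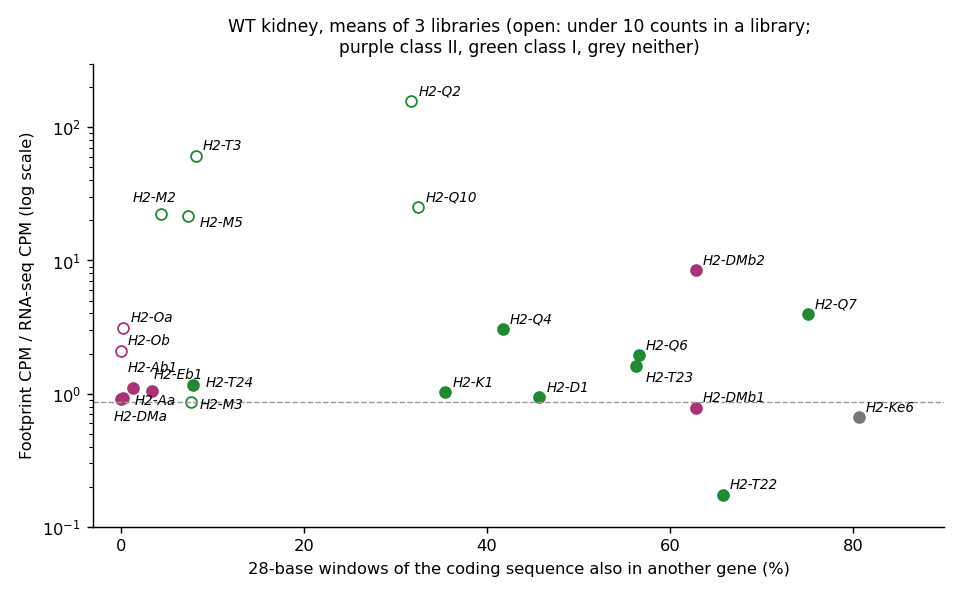
Ratio of mean footprint CPM to mean RNA-seq CPM in WT kidney (y axis, log scale) against the share of 28-base coding windows that occur in another gene (x axis, percent), with a point per MHC gene and open points where a library had under 10 counts. The dashed line is the median of 0.871 over coding genes, by which H2-Aa, H2-Ab1, H2-Eb1, H2-K1 and H2-D1 lie. H2-T22 is below it at 0.174, while the class II gene H2-DMb2 is above it at 8.49 and H2-Q2 far above.

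At the low end, 10 class I genes (H2-M10.1 to H2-M10.6, H2-M11, H2-M9, H2-M1 and H2-M2) never exceeded 13 counts in any of the 30 libraries and entered no KO comparison by RNA-seq, Ribo-seq or disome-seq in either tissue. Most of these are known from the vomeronasal organ, which was not sampled. H2-T3, the thymus leukemia antigen of the intestine, reached 21 counts at most. In WT kidney RNA-seq, 12 of the 24 class I genes had 3 counts or fewer in every library, and 10 of these had none, which allows up to 3 counts of each.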

How the data were processed

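RNA-seq, Ribo-seq and disome-seq of WT and Rpl41 KO mice (3 libraries per group, 10 groups) were analysed. For footprints the authors digested tissue lysates with RNase I, and for RNA-seq they selected poly(A) RNA. They trimmed reads with cutadapt, discarded reads of rRNA, used STAR to align the rest to the mouse transcriptome and genome (GRCm38.p6, mm10), allowed multimapping reads, and counted with featureCounts of Subread (versions not given in the sources used here). They deposited whole-number counts per transcript without normalization. Of 142604 transcripts, 141374 matched GENCODE M21 by identifier. A table of human cells, whose 28 value columns carry titles of mouse samples, was not used.

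Each comparison was fitted on all transcripts of the groups compared with edgeR 4.0.16 (R 4.3.3), using filterByExpr, TMM scaling and the quasi-likelihood F-test. A Benjamini-Hochberg adjusted p under 0.05 was called, and these fits used no replicate numbers. TE was the interaction of assay and genotype. The standard error of a log2 fold change is its size divided by the root of F. Windows of 28 bases were called shared where a transcript of another gene holds them on its own strand. Floors of 3 counts cover counting error only. The alignment allowed multimapping, so reads of duplicated genes can enter several of them.

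Whether replicate numbers pair samples was checked by correlating deviations from group means. Between WT and KO no set had every pair over 0.1 (-0.124 to 0.055 in kidney Ribo-seq). Between RNA-seq and Ribo-seq every pair was over 0.1 in WT kidney (0.189 to 0.265) and KO kidney (0.154 to 0.172), as in WT brain (0.289 to 0.558), and between brain and kidney RNA-seq of KO (0.14 to 0.306). With the number as a block, TE and the other comparisons with no MHC call still had none. No source states what a number marks.

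Genes named are those called in a genotype comparison, every class II gene, the 6 class I genes with the highest RNA per kb in WT kidney, H2-Ke6, the 3 largest tissue differences in each direction, 10 pathway genes and up to 3 called genes per list. Chosen after their values were seen were H2-Q2, H2-Q7, H2-T3, H2-T24, H2-M2 and H2-M3. A gene of the interferon list is not reported here and was left out of its counts. The members and lists were chosen with earlier results of these data known. Alternatives were DESeq2 1.42.0, library size alone, other count filters, counts summed per gene, 1 transcript per gene, a replicate block, each library left out and, in kidney RNA-seq, KO replicates 2 and 3 left out together. The scripts were tested on simulated data. The sizes of known changes were recovered, but the Ribo-seq fits made more false calls than the threshold allows for, so calls near it are weak, and the TE fit called few of the changes, so a missing TE call says little.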

Additional observations from a re-analysis of the deposited data

How the results depend on the processing

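The 7 rises in kidney footprints kept their direction under every alternative run, but the calls were fewer under several. Of 91 alternatives over these 7 genes 52 kept the call, 39 lost it and 0 reversed. The count was 3 with library size alone, 4 with counts summed per gene and 4 with a replicate block, and ranged from 0 to 4 with 1 library left out in turn (4, 3 and 4 without WT replicates 1, 2 and 3, and 3, 1 and 0 without KO replicates 1, 2 and 3). Over all coding genes the calls dropped as well, from 798 higher and 525 lower to 59 and 51 without KO replicate 2 and 26 and 27 without KO replicate 3. The replicate block changed no other count of calls by over 1.5 times. H2-Eb1 kept its call in 12 of 13 alternatives, H2-Ab1 and H2-Q4 in 11, H2-Aa in 7, H2-D1 in 5, H2-K1 in 4 and H2-Q1 in 2, and outside the MHC Ctss in 12, Cd74 in 10, Ciita in 6 and Tap1 in 4. Leaving out 1 library moved the count from 0 to 1 in kidney RNA-seq (H2-Ke6 rose by 0.78, adjusted p = 0.0331), from 0 to 4 for kidney TE and from 0 to 1 for the interaction of tissue and genotype in RNA-seq (H2-Eb1, -1.23, adjusted p = 0.0168), each time without KO kidney RNA-seq replicate 1. In that RNA-seq fit 1198 coding genes were called higher and 325 lower, so the call was not particular to the MHC, and the cause was not tested. Library size alone moved the median of all coding genes from 0.10 to -0.06 in kidney RNA-seq and from -0.02 to -0.09 in kidney Ribo-seq. Counts for the other genotype comparisons remained at 0 in all alternatives run, and the tissue counts stayed within 1.5 times. Depth limits the disome test, with 1187636 to 3018963 counts per library and 10 MHC genes tested.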
